A study of Mus musculus with 59 samples.

Results

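The oligodendrocyte lineage transcription factors described here are 10 genes chosen by name from the deposited expression table: Sox8, Sox10, Olig1, Olig2, Nkx2-2, Nkx6-2, Myrf, Zfp488, Zfp536 and Tcf7l2. All 10 were found among its 41227 genes, and all 10 passed the filter of 1 FPKM or more in at least 3 libraries in both sets of libraries. FPKM are fragments scaled to transcript length and to the mapped fragments of a library. RNA from the pons, a brainstem region affected in spinocerebellar ataxia type 3, was sequenced in C57BL/6 mice that carry polyglutamine-expanded ataxin-3 or lack ataxin-3. The age of the mice is not given in the sources used here.

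The first set held 9 libraries: 3 wild-type, 3 from Atxn3 knockout mice (Atxn3KO) and 3 from mice homozygous for a knock-in of a duplicated repeat of 82 glutamines (dupKIHom). The second set held 28 libraries. Of these, 6 were wild-type, 6 were heterozygous for the duplicated knock-in (dupKIHet), and another 8 carried the repeat of 82 glutamines once, 4 heterozygous (KIHet) and 4 homozygous (KIHom). The last 8 came from mice hemizygous for a human ATXN3 transgene, 4 with 84 glutamines (YACQ84) and 4 with 15 (YACQ15). The knock-in mice carry the repeat in the mouse Atxn3 gene, whereas the transgenic mice carry a human gene; whether they also keep both mouse alleles is not given in the sources used here. By Ddx3y and Xist the first set is male and the second female, and each set was tested only within itself.

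Oligodendrocytes form myelin, and their fate and maturation are driven by a small set of transcription factors. OLIG2 and OLIG1 are basic helix-loop-helix proteins that specify and mature the lineage, SOX10 and its close relative SOX8 are HMG-box proteins that act on myelin genes, and MYRF, which is switched on by SOX10, drives the late myelin programme. In mice, NKX2-2 and NKX6-2 are homeodomain proteins of the same lineage, ZFP488 is a zinc finger partner of OLIG2 that promotes maturation, and TCF7L2 relays Wnt signals in newly formed oligodendrocytes. Tcf7l2 is also a marker of thalamic neurons. In bulk tissue, fewer cells of a type and less RNA per cell cannot be told apart.

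Sox8 and Zfp488 were the members called higher in dupKIHom, and Zfp488 was called higher in dupKIHet and YACQ84 as well, so the proximal promoters of these genes are shown. RefSeq entries matched 7 of the 10 members by symbol. Each sequence runs 5′ to 3′ on the gene's strand from 250 bases before the start to 20 bases after it (RefSeq, build GRCm38.p6). Sox8 lies on the minus strand at chr17:25570667-25570936 and Zfp488 on the minus strand at chr14:33978745-33979014. Capitals mark an E-box, CANNTG, the general form of site that basic helix-loop-helix proteins bind, and CTGGNAC, a loose form of the MYRF core site. N is any base, so a match need not be a form that OLIG2 or MYRF prefers.
Sox8: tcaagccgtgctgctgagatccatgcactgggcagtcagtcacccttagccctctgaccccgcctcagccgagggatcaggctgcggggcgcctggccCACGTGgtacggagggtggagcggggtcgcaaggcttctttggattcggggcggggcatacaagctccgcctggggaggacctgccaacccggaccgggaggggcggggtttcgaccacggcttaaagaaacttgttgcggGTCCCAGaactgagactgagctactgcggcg
Zfp488: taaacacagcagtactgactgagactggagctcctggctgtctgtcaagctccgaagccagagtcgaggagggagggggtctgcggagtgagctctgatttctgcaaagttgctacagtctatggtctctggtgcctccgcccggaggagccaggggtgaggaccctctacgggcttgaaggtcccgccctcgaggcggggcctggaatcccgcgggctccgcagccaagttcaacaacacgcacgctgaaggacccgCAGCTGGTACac
The 300-base windows, 250 bases before to 50 after the start, were searched on both strands. In Sox8 the E-box begins at position -152 and the MYRF-type match, on the reverse strand, at -11. In Zfp488 the E-box begins at position 9 and the MYRF-type match at position 12, so these matches overlap. Neither window holds the SOX letters ACAANG or the TCF/LEF letters CTTTGA. Among 32851 promoters of this length, 72.3% hold an E-box, 19.3% CTGGNAC, 41.2% ACAANG and 16% CTTTGA. The matches are letters in a window and describe no binding. GC content was 66.3% for Sox8 and 61.3% for Zfp488, against a median of 52.7% over all promoters.

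The pons label was checked on hindbrain transcripts: Hoxa2 stood at 2.23 to 3.77 FPKM and the glycine transporter gene Slc6a5 at 49.0 to 91.3 FPKM over all libraries. The 8 genes of the pons list summed to 131 to 140 FPKM in wild-type and 108 to 119 FPKM in dupKIHom in the first set, and to 120 to 144 FPKM in wild-type and 98.1 to 115 FPKM in YACQ84 in the second, without overlap. Of the list, 1 gene of 7 tested, Dbh of noradrenergic neurons, was called lower in YACQ84 and in dupKIHet, and none of 8 was called in dupKIHom by limma. The part of this in the results on Sox8 and Zfp488 was not tested. Hoxb2, at 4.76 to 7.81 FPKM in the first set, was listed at 0 in all 28 libraries of the second. For 2 genotypes of the second set, wild-type and dupKIHet, Mbp, which encodes myelin basic protein, had only values of 0, and it was not tested there. Atxn3 stood at 0.186 to 0.335 FPKM in the knockout libraries, at 6.23 to 7.49 FPKM in the wild-type libraries beside them and at 10.6 to 14.1 FPKM in dupKIHom. In the second set it stood at 6.20 to 8.15 FPKM in wild-type, 10.4 to 13.4 FPKM in dupKIHet, 5.47 to 6.92 FPKM in KIHet and 5.44 to 5.61 FPKM in KIHom. Ttr, a choroid plexus transcript, spanned 4.51 to 2909 FPKM over the first set and 14.2 to 3125 FPKM over the second. In the second set, the 6 libraries numbered 1, 1 per genotype, stood apart on the first principal component of all other genes, which held 12.8% of the variance. In these 6 libraries Sox10 and Nkx6-2 were the lowest of their genotype in 6 of 6 genotypes and Zfp488 the highest in 6 of 6.

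All 10 factors were expressed in every library. Per transcript length, Olig1 was the highest, at 118 to 194 FPKM over the first set and 74.2 to 110 FPKM over the second. Sox8, Sox10, Olig2, Nkx6-2 and Myrf formed a middle tier whose ranges overlapped, 20.6 to 38.8 FPKM over the first set and 12.1 to 38.5 FPKM over the second. Zfp536 stood at 7.30 to 10.1 FPKM and 9.53 to 16.5 FPKM. Nkx2-2, at 4.35 to 6.31 and 2.78 to 5.33 FPKM, and Zfp488, at 3.51 to 6.49 and 2.43 to 4.89 FPKM, overlapped in both sets. Tcf7l2 had a median of 1.90 FPKM in the first set and 2.77 FPKM in the second.

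In dupKIHom, Sox8 and Zfp488 rose, and no other member passed the test. Sox8 was at 24.8, 24.3 and 28.1 FPKM in the wild-type libraries of the first set and at 37.6, 38.8 and 37.2 FPKM in the dupKIHom libraries. Zfp488 was at 3.51, 3.98 and 3.72 FPKM in wild-type and at 5.93, 5.91 and 6.49 FPKM in dupKIHom. Every dupKIHom library lay above every wild-type library for both genes, as it did for 12% of all genes in this comparison. The log2 difference was 0.54 ± 0.07 (SE, n = 3 and 3, limma adjusted p = 0.00245) for Sox8 and 0.59 ± 0.09 (limma adjusted p = 0.00605) for Zfp488, on the log2(FPKM + 1) scale. These were 2 of 10 members called higher and 0 called lower, where 0.484% of all genes were called higher and 1.15% lower. Both calls held without each library in turn.

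**Figure D1:**
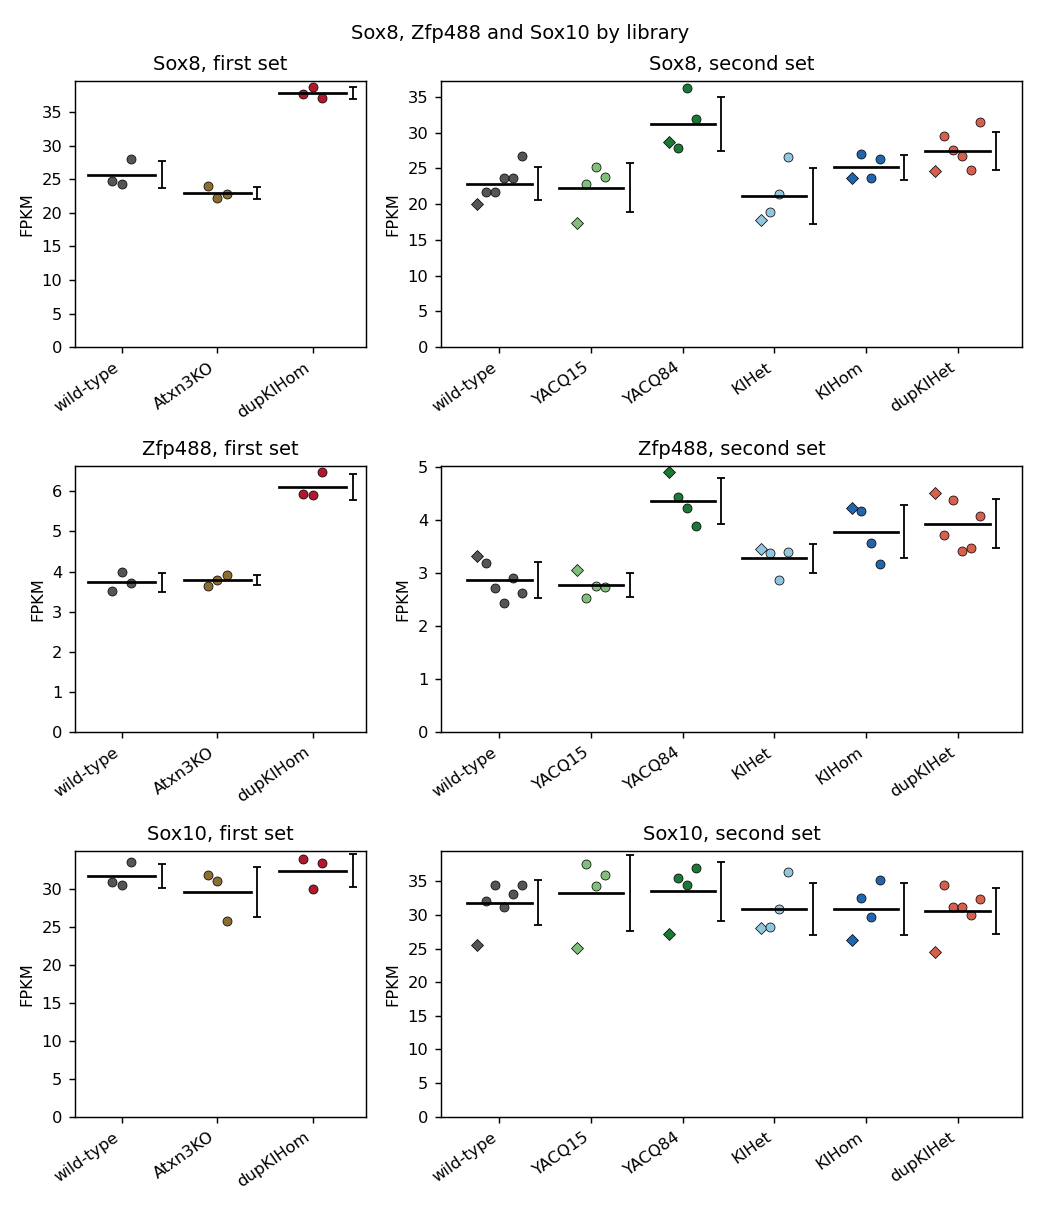
Sox8, Zfp488 and Sox10 in FPKM (y axis, from 0) for each library, by genotype, in the first set (left) and the second set (right). Points are libraries, diamonds the libraries numbered 1 of the second set, horizontal bars group means and error bars 1 SD. Sox8 and Zfp488 of dupKIHom lie above all other libraries of their set, whereas Sox10 overlaps between genotypes.

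The knockout libraries showed no rise of either gene. In the knockout, Sox8 was at 24.02, 22.2 and 22.8 FPKM, all just below the lowest wild-type library, with a log2 difference from wild-type of -0.15 (SE 0.07, limma adjusted p = 0.771). Zfp488 was at 3.65, 3.80 and 3.90 FPKM, with a log2 difference of 0.01 (95% interval -0.18 to 0.21, limma adjusted p = 0.987). No member was called in the knockout by limma, where 0.0142% of all genes were called in either direction; 2 members, Olig1 and Olig2, had an unadjusted p under 0.05, both lower, as did 6.46% of all genes. Olig1 was at 136, 118 and 130 FPKM in the knockout and at 160, 144 and 151 FPKM in wild-type, without overlap, but its limma adjusted p was 0.630. Sox8, Olig1 and Olig2 were the 3 members wholly below wild-type in the knockout, as were 5.17% of all genes.

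Set directly against the knockout, dupKIHom had 3 of 10 members called higher and 0 lower, where 0.555% of all genes were called higher and 0.69% lower. Sox8 differed by a log2 value of 0.70 ± 0.07 (SE, limma adjusted p = 0.000721) and Zfp488 by 0.57 ± 0.09 (limma adjusted p = 0.00983). The third was Olig1, at 194, 160 and 178 FPKM in dupKIHom, with a log2 difference of 0.46 ± 0.08 (limma adjusted p = 0.0181). All 3 lay wholly above the knockout. So did Tcf7l2 and, only narrowly, Olig2, neither of them called, and 10.7% of all genes. Olig1 in dupKIHom overlapped with wild-type, and its difference from wild-type was 0.22 (limma adjusted p = 0.273). The comparisons of dupKIHom with wild-type and with the knockout share the dupKIHom libraries. The call for Olig1 was lost without Atxn3KO library 3, dupKIHom library 1 or dupKIHom library 3 (limma adjusted p = 0.0513, 0.0904 and 0.0781). That for Zfp488 was lost without dupKIHom library 3 (0.0503). It was also lost (0.0558) when Atxn3KO libraries 1 and 3, each over 1000 FPKM of Ttr, were left out, with 1 knockout library remaining.

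In mice heterozygous for the duplicated knock-in, Zfp488 rose again. Its 6 wild-type libraries ran from 2.43 to 3.31 FPKM with a median of 2.81, and its 6 dupKIHet libraries from 3.41 to 4.49 FPKM with a median of 3.89. The groups did not overlap, as was so in this direction for 0.858% of all genes. The log2 difference was 0.35 ± 0.07 (SE, n = 6 and 6, limma adjusted p = 0.00489). This was 1 of 10 members called higher and 0 lower, where 1.16% of all genes were called higher and 1.37% lower. Sox8 ran from 19.95 to 26.7 FPKM in wild-type with a median of 22.7 and from 24.6 to 31.5 FPKM in dupKIHet with a median of 27.1, an overlap, and its log2 difference of 0.25 (95% interval 0.06 to 0.45) did not pass the test (limma adjusted p = 0.207). Without the 7 libraries of the set above 1000 FPKM of Ttr, 3 of them dupKIHet, the difference for Zfp488 was 0.33 and no longer passed the test (limma adjusted p = 0.0558).

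Zfp488 also rose with the human transgene of 84 glutamines. Zfp488 was at 4.89, 4.42, 4.21 and 3.88 FPKM in YACQ84, all above the highest wild-type library. Its log2 difference from wild-type was 0.47 ± 0.08 (SE, n = 4 and 6, limma adjusted p = 0.00363), 1 of 10 members called higher and 0 lower, where 0.365% of all genes were called higher and 0.162% lower. Sox8 was at 28.7, 27.8, 36.3 and 31.9 FPKM, also without overlap with wild-type, as was so in this direction for 1.33% of all genes. Its log2 difference was 0.43 (95% interval 0.21 to 0.65), and its limma adjusted p of 0.0754 missed the threshold. Without wild-type library 6, Sox8 passed it (limma adjusted p = 0.0496), and with only these groups in the fit the limma adjusted p of Zfp488 was 0.101.

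With 15 glutamines, neither gene stood out. Zfp488 was at 3.06, 2.53, 2.75 and 2.73 FPKM in YACQ15, within the wild-type range, with a log2 difference of -0.03 (95% interval -0.20 to 0.13). Sox8 was at 17.4, 22.8, 25.1 and 23.9 FPKM, with a log2 difference of -0.04 (95% interval -0.26 to 0.17). By limma, 0 of 10 members were called against wild-type, where 0.00676% of all genes were called; Olig1 and Olig2 were the 2 members with an unadjusted p under 0.05, both lower, as against 4.49% of all genes. Between the transgenic lines, which differ in repeat length and are separate lines, Zfp488 was higher in YACQ84 by a log2 value of 0.50 ± 0.09 (SE, n = 4 and 4, limma adjusted p = 0.0048). This was 1 of 10 members called higher and 0 lower, where 0.209% of all genes were called higher and 0.054% lower. Sox8 differed by 0.47 (limma adjusted p = 0.0992). With only these lines in the fit, or without the libraries above 1000 FPKM of Ttr, the limma adjusted p of Zfp488 was 0.158 and 0.0615. Neither Sox8 nor Zfp488 overlapped between these lines, as was so in this direction for 2.48% of all genes. Olig1 and Olig2, which were not called, did not overlap either and were also higher in YACQ84. Atxn3 stood at 5.71 to 8.58 FPKM in YACQ84 and 8.29 to 9.92 FPKM in YACQ15.

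**Figure D2:**
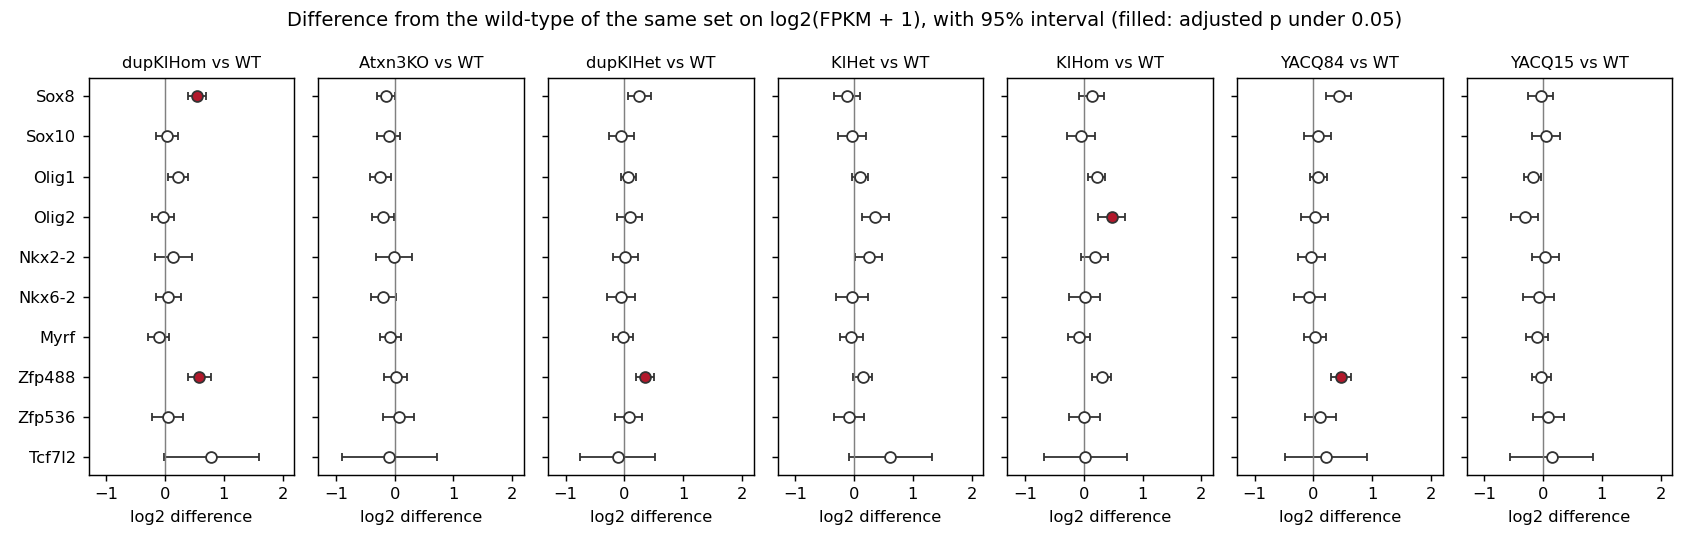
Log2 difference of each of the 10 factors from the wild-type of its own set (x axis, log2(FPKM + 1) scale) with 95% intervals, in the 7 comparisons with wild-type; filled points have a limma adjusted p under 0.05. Zfp488 is filled in dupKIHom, dupKIHet and YACQ84, Sox8 in dupKIHom and Olig2 in KIHom, and the other 7 members have open points throughout.

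With the single repeat, neither Sox8 nor Zfp488 passed the test. In KIHet, 0 of 10 members were called by limma, where 0.115% of all genes were called, 0.101% lower; Olig2 and Nkx2-2 were the 2 with an unadjusted p under 0.05, both higher, as against 10.6% of all genes. Without wild-type library 2, Olig2 passed the test in KIHet (0.44, limma adjusted p = 0.0441). Zfp488 was at 3.45, 3.37, 2.87 and 3.39 FPKM in KIHet and at 4.21, 4.16, 3.56 and 3.16 FPKM in KIHom. Its log2 difference from wild-type was 0.15 in KIHet (95% interval -0.02 to 0.31) and 0.31 in KIHom (95% interval 0.14 to 0.47), with limma adjusted p of 0.536 and 0.0803 (0.0420 in KIHom without wild-type library 2). Sox8 was at 17.8, 18.9, 21.4 and 26.5 FPKM in KIHet and at 23.7, 27.03, 23.7 and 26.3 FPKM in KIHom, both overlapping wild-type. Between KIHom and KIHet no gene of the table was called, 0% of 14802, and 1 member, Sox8, had an unadjusted p under 0.05, as did 2.25% of all genes.

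Duplicated and single-repeat heterozygotes differed in Sox8, which was higher in dupKIHet than in KIHet by a log2 value of 0.37 ± 0.11 (SE, n = 6 and 4, limma adjusted p = 0.0255), with overlapping groups. This was 1 of 10 members called in a comparison in which 10.7% of all genes were called, 7.84% higher and 2.81% lower, so the count is at the background. The call was lost without dupKIHet library 2, KIHet library 1 or KIHet library 2 (limma adjusted p = 0.0567, 0.109 and 0.0936).

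Olig2 was the member called in KIHom, 1 of 10 higher and 0 lower, where 0.142% of all genes were called higher and 0.459% lower. It was at 25.1, 26.2, 25.5 and 27.5 FPKM in KIHom and at 22.2, 24.2, 24.04 and 25.7 FPKM in KIHet. The 6 wild-type libraries of this set were at 15.3, 24.5, 16.9, 16.1, 24.5 and 15.8 FPKM, so wild-type libraries 2 and 5 lay within the KIHet range and the other 4 far below it. Every KIHom library lay above every wild-type library, as was so in this direction for 0.757% of all genes. The log2 difference of KIHom from wild-type was 0.48 ± 0.11 (SE, n = 4 and 6, limma adjusted p = 0.0462). It held without wild-type library 2 or 5 and was lost in each of the other 8 leave-outs (limma adjusted p up to 0.133). With only these groups in the fit the limma adjusted p was 0.262. Wild-type libraries 2 and 5 also lay among the KIHet and KIHom libraries on the second principal component of all other genes, which held 8.03% of the variance, whereas the other 18 libraries lay on the other side of 0. What sets these libraries apart was not tested. In the first set Olig2 was at 23.4 to 27.4 FPKM in wild-type, 22.9, 20.6 and 23.003 FPKM in the knockout and 26.9, 25.2 and 23.007 FPKM in dupKIHom.

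**Figure D3:**
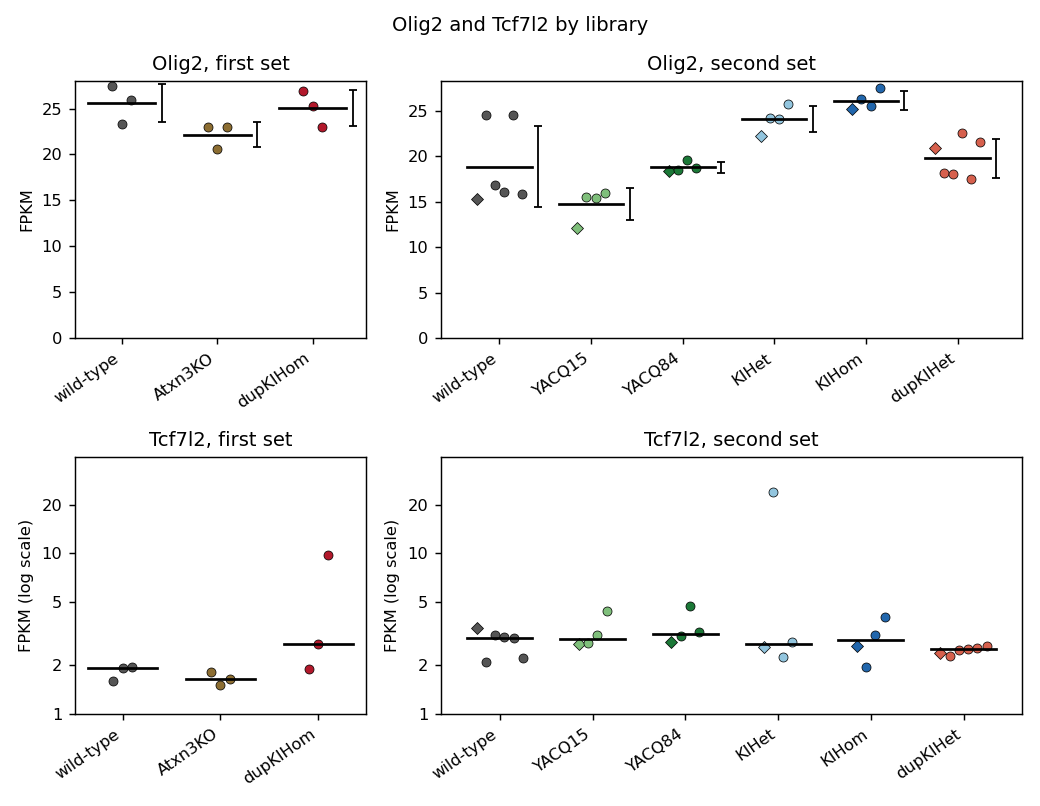
Olig2 (top, FPKM from 0) and Tcf7l2 (bottom, FPKM on a log scale) for each library, by genotype, in the first set (left) and the second set (right). Points are libraries and diamonds the libraries numbered 1; bars are means with 1 SD for Olig2 and medians for Tcf7l2. The wild-type libraries of the second set fall into 4 near 16 FPKM of Olig2 and 2 at 24.5 FPKM, and single libraries of dupKIHom and KIHet stand far above the rest for Tcf7l2.

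Tcf7l2 differed between single libraries rather than between genotypes. It was at 9.79 FPKM in dupKIHom library 3 and at 24.2 FPKM in KIHet library 2, against at most 2.70 and 4.69 FPKM in the other libraries of the first and the second set. Lhx9, singled out after its values were seen, which marks thalamic and midbrain neurons, was the highest of its set in the same libraries, at 3.26 and 5.57 FPKM, with at most 1.28 and 2.10 FPKM elsewhere. Lhx2 was the highest of its set there as well, at 1.59 and 2.94 FPKM. The summed FPKM of the 8 genes of the thalamic and midbrain list was 80.7 to 96.7 in dupKIHom against 85.6 to 99.4 in wild-type. It was 81.2 to 107 in KIHet against 87.7 to 111 in wild-type. Slc17a6 alone was at 63.1 to 78.9 FPKM over the first set and 61.8 to 87.1 FPKM over the second. These sums therefore mostly follow Slc17a6 and cannot show whether such tissue was present in the 2 libraries. The part of such tissue was not tested. Tcf7l2 was not called in any comparison. Its difference of KIHet from wild-type changed from 0.62 to -0.09 without KIHet library 2.

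Sox10, Myrf, Nkx2-2, Nkx6-2 and Zfp536 passed the test in none of the 11 comparisons. For Sox10 the differences from wild-type ran from -0.10 to 0.07, and the 95% intervals of all 7 comparisons lay between -0.29 and 0.31. For Myrf the differences ran from -0.11 to 0.03 with intervals between -0.29 and 0.22. Nkx6-2 ran from -0.20 to 0.06 with intervals between -0.41 and 0.28, and Zfp536 from -0.08 to 0.12 with intervals between -0.34 and 0.38. Nkx2-2 ran from -0.04 to 0.25 with intervals between -0.32 and 0.48. On the log2(FPKM + 1) scale, a difference of 0.54, as seen for Sox8 in dupKIHom, lies outside these intervals for all 5 genes. That scale understates changes of low genes. For Nkx2-2 a fold change in FPKM like that of Sox8 could therefore lie within its intervals.

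Since Sox8 and Sox10 are close relatives with similar levels, their ratio within a library was computed after their values had been seen, as a description. Sox8 FPKM divided by Sox10 FPKM was 0.795, 0.802 and 0.838 in ascending order in the wild-type libraries of the first set and 0.716 to 0.883 in the knockout. It was 1.11, 1.12 and 1.30 in dupKIHom, where Sox8 exceeded Sox10 in every library. In the second set the ratio was 0.630 to 0.783 in wild-type, 0.826 to 1.01 in dupKIHet, 0.784 to 1.06 in YACQ84, 0.746 to 0.904 in KIHom, 0.633 to 0.729 in KIHet and 0.606 to 0.732 in YACQ15. The dupKIHom, dupKIHet and YACQ84 libraries all lay above their wild-type libraries, YACQ84 only narrowly. The ratio of a gene to Sox10 did not overlap in this direction for 5.84% of all genes in dupKIHom, 0.473% in dupKIHet and 0.176% in YACQ84.

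**Figure D4:**
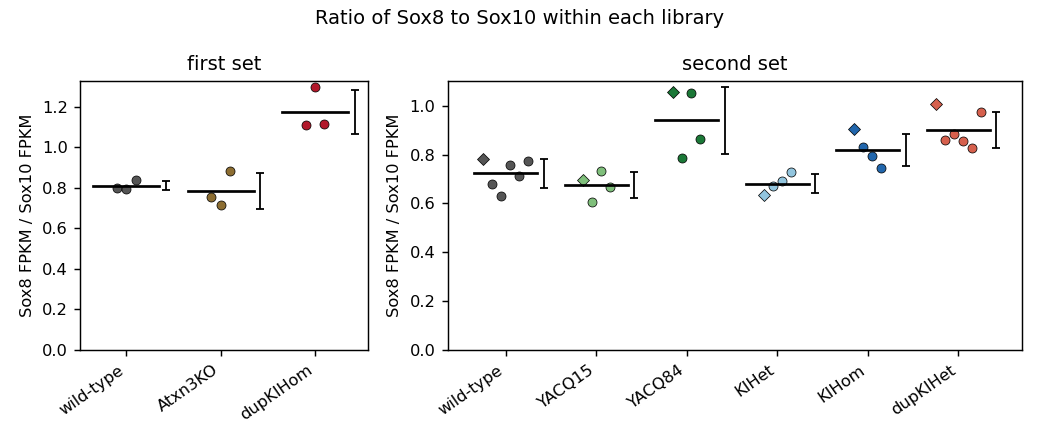
Sox8 FPKM divided by Sox10 FPKM (y axis, from 0) within each library, by genotype, in the first set (left) and the second set (right). Points are libraries, diamonds the libraries numbered 1 of the second set, bars group means and error bars 1 SD. The ratio exceeds 1 in all 3 dupKIHom libraries and lies between 0.606 and 0.783 in the wild-type, YACQ15 and KIHet libraries of the second set.

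The 10 members did not all move together, though some pairs did. The highest Pearson's r of log2(FPKM + 1) between members over the second set were 0.86 for Sox10 with Nkx6-2, 0.82 for Olig1 with Olig2 and 0.71 for Sox10 with Myrf. Over the first set these pairs had r of 0.66, 0.72 and 0.67. Over the 28 libraries of the second set, Pearson's r of log2(FPKM + 1) between Sox8 and Zfp488 was 0.47 (Spearman's rho 0.56), and between Sox10 and Zfp488 it was -0.32 (rho -0.30). Over the 9 libraries of the first set, r between Sox8 and Zfp488 was 0.93 (rho 0.53), with the 3 dupKIHom libraries apart from the other 6. These libraries share their genotypes, so the values are descriptions. The genes most like Sox8 over the second set were Fgd3, Cntn2 and Sh3tc2, with r of 0.87, 0.87 and 0.86 and, over the first set, 0.89, 0.73 and 0.74. Those most like Zfp488 were Tmc3, Ell2 and Lrrn1, with r of 0.84, 0.82 and 0.80 and, over the first set, 0.93, 0.73 and 0.68. For Olig2 they were Jam3, Anln and Rnpep, with r of 0.89, 0.87 and 0.86 over the second set but 0.42, 0.29 and -0.04 over the first.

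Other regulators of the lineage, 27 genes listed with earlier results of these data known, gave few calls. In dupKIHom, 0 of 26 tested were higher and 2 lower: Id2, an inhibitor of helix-loop-helix factors, with a log2 difference of -0.60 (limma adjusted p = 0.00808), and Qk, an RNA-binding protein needed for myelin, with -0.44 (limma adjusted p = 0.0226). In dupKIHet, 3 of 25 were higher and 0 lower: Tcf12 and Tcf4, whose proteins pair with other helix-loop-helix factors, by 0.32 and 0.22, and Prox1, a homeobox gene active in this lineage, by 0.32. In YACQ84, 1 of 25 was higher, again Prox1, by 0.29 (limma adjusted p = 0.0424). Against wild-type, none of the list was called by limma in the knockout, KIHet, KIHom or YACQ15. Of 12 tested genes of the Wnt and TCF/LEF list, Rnf43, which removes Wnt receptors, was called higher in dupKIHom, at 3.096 ± 0.357 FPKM against 1.24 ± 0.287 FPKM (SD, n = 3 each). Lef1, a relative of Tcf7l2, was called higher in dupKIHet, at 1.69 ± 0.274 FPKM against 1.15 ± 0.149 FPKM (SD, n = 6 each). The median log2 difference of the 12 genes was -0.03 in dupKIHom, with 5 above wild-type and 7 below. In dupKIHet it was 0.13, with 11 above and 1 below.

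Against wild-type, genes known as targets of SOX10 or MYRF were called lower or not at all. Of 10 targets tested in dupKIHom, 0 were called higher and 3 lower, among them Mbp, which encodes myelin basic protein, and Erbb3, a neuregulin receptor gene, at log2 differences of -0.36 and -0.71 (limma adjusted p = 0.0207 and 0.0194). Mbp was at 4144 ± 156 FPKM in dupKIHom and 5326 ± 225 FPKM in wild-type (SD, n = 3 each). The median of the list was -0.09 in dupKIHom, beside 0.02 over all genes. In the knockout the median was lower, at -0.21, with 10 of 10 targets below wild-type and 0 called by limma. In the second set it was -0.08 in dupKIHet, KIHom and YACQ15, -0.10 in KIHet and 0.07 in YACQ84. Of the 8 targets tested in the second set, 0 were called higher against wild-type in any model. Against the knockout, 2 of 10 targets were called higher in dupKIHom and 2 lower, among them Dusp15, at a log2 difference of 0.43 (limma adjusted p = 0.00465), and Erbb3, at -0.66 (0.0385).

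Genes of mature oligodendrocytes called in dupKIHom, dupKIHet and YACQ84 were lower, with 1 exception. Of 35 tested in dupKIHom, 13 were called lower and 1, Apod, higher; the largest decreases were in Klk6, Car2 and Aspa, by log2 values of -1.51, -1.24 and -1.07. In dupKIHet 10 of 32 were lower and 0 higher, and in YACQ84 6 of 32 were lower and 0 higher, with Car2 at -0.53. In KIHom 5 of 32 were lower and 1, Anln, higher, and in KIHet 1, Tspan2, was lower. In the knockout and in YACQ15, 0 were called by limma. Anln split the wild-type libraries of the second set as Olig2 did. It was at 39.4 and 38.3 FPKM in libraries 2 and 5 and at 29.6 to 29.9 FPKM in the others, so its call in KIHom carries the same limit. The median of the mature oligodendrocyte list was -0.25 in dupKIHom, -0.12 in dupKIHet and -0.05 in YACQ84. Beside it stood 0.10, 0.04 and 0.08 for the 10 factors and 0.02, 0.01 and 0.00 for all genes. A negative median of the list was not particular to these models. It was -0.21 in the knockout, where 34 of 35 genes had a negative difference, -0.14 in KIHet, and -0.09 in both KIHom and YACQ15. Genes of newly formed oligodendrocytes, 16 tested, gave no call by limma against wild-type in any model. Of 14 precursor genes tested in dupKIHet and YACQ84, 1, Pcdh15, was called higher in both, by 0.65 and 0.61. The precursor list as a whole did not rise with it. Its median was -0.03 in dupKIHet, with 5 genes above wild-type and 9 below, and -0.004 in YACQ84, with 7 above and 7 below. No precursor gene was called lower against wild-type in any model.

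**Figure D5:**
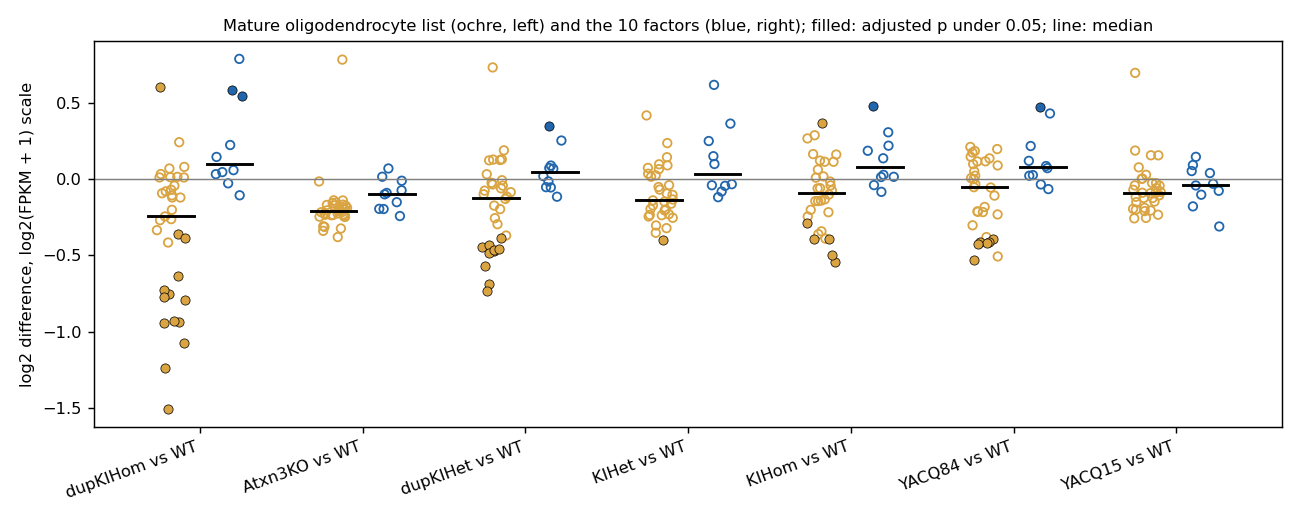
Log2 difference from wild-type (y axis, log2(FPKM + 1) scale) of the mature oligodendrocyte genes (ochre, left of each pair) and of the 10 factors (blue, right), for the 7 comparisons with wild-type; filled points have a limma adjusted p under 0.05 and black lines are medians. In dupKIHom 13 of 35 myelin-stage genes are called lower, whereas the 2 called factors, Sox8 and Zfp488, are higher.

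Markers of some other cell types moved in the duplicated knock-in too, astrocyte markers among them. Of 20 tested, 13 were called lower in dupKIHom, 14 in dupKIHet, 2 each in KIHom and YACQ84, and 0 in the knockout, KIHet and YACQ15. Their summed FPKM was 4341 to 4610 in wild-type and 3087 to 3394 in dupKIHom, and 4355 to 5004 in wild-type and 3019 to 3406 in dupKIHet; no marker of the list was at 0. In YACQ84, where Zfp488 was also called higher, it was 3663 to 4317. The summed FPKM of the Schwann cell list was 85.2 to 89.4 in wild-type and 48.5 to 51.2 in dupKIHom, with Pmp22 the 1 gene of the list called, lower. Of 12 endothelial and mural genes, 2 were called lower in dupKIHom, Cldn5 and Rgs5, and the list summed to 187 to 207 FPKM in wild-type and 151 to 155 FPKM in dupKIHom. In dupKIHet 3 of them, Flt1, Kdr and Esam, were called higher, and in KIHom 2, Flt1 and Pecam1, were called lower. Of 16 neuronal genes, 3 were called lower in dupKIHom, the neurofilament genes Nefl, Nefm and Nefh, with summed FPKM of 4584 to 4793 in wild-type and 4121 to 4262 in dupKIHom. In dupKIHet, 0 of 14 neuronal genes tested were called by limma. Against wild-type, no gene of the microglia, choroid plexus, meninges and fibroblast or serotonergic lists was called in dupKIHom or dupKIHet. The part of these cell types in the differences of Sox8 and Zfp488 was not tested.

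The 6 libraries numbered 1 of the second set, which had the highest Zfp488 of their genotype, had these Zfp488 levels: 4.89 FPKM in YACQ84, 4.49 in dupKIHet, 4.21 in KIHom, 3.45 in KIHet, 3.31 in wild-type and 3.06 in YACQ15. Without these 6 libraries, an alternative chosen after seeing the data, the Zfp488 difference from wild-type was 0.35 in dupKIHet (limma adjusted p = 0.00722) and 0.46 in YACQ84 (0.0168), and that between the transgenic lines was 0.49 (0.0230). With a covariate for them, Sox8 passed the test in dupKIHet (0.25, limma adjusted p = 0.0480) and in YACQ84 (0.45, 0.00513).

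By GENCODE M21, exons of 4 members overlap a gene on the other strand: Sox8 with 2810468N07Rik, Olig1 with Gm15966, Nkx2-2 with Nkx2-2os and Nkx6-2 with Inpp5a. The sources used here give no strand setting, so reads of these pairs cannot be told apart, and the Sox8 values carry that limit. Zfp488, Sox10, Olig2, Myrf, Zfp536 and Tcf7l2 have no such overlap in that annotation.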

How the data were processed

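Total RNA of the pons was extracted with Trizol and purified on columns, per the labels' protocols. The authors deposited 1 FPKM value per gene and library. Per the submitters' processing notes, the mouse build was mm8 and the tools included TopHat2, Cuffdiff, Trimmomatic, DESeq, FastQC and CASAVA 1.8.2; their order and roles are not given in the sources used here. FPKM keep no read totals, so depth is unknown, no counting error can be given, and precision rests on the spread between libraries. A library of the first set held 488351 to 695249 FPKM in all, one of the second 430083 to 560516.

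Of 59 labelled samples, 37 have a column in the table, and 22 were not analysed here. The design text counts mice, so libraries of a genotype were taken as separate mice. For 6 wild-type columns the name matched 2 samples each, so they stand for the wild-type group and no particular sample. Libraries are numbered by column name within a genotype.

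Of 41386 table lines, 27 with a date for a name were dropped and 132 repeated symbols summed. Genes at 0 in every library of a genotype and at 1 FPKM or more in every library of another (7 and 12) were left out of the set concerned as possible failed estimates. For each set, limma 3.58.1 (R 4.3.3, eBayes with trend) was fitted to log2(FPKM + 1) of the genes (14059 and 14802) that reached 1 FPKM in 3 or more libraries, with 1 mean per genotype. The 11 contrasts were two-sided, adjusted by the Benjamini-Hochberg method across the kept genes of a set, and called at 0.05. The scale understates changes of low genes. The script was tested on simulated data. Alternatives changed the pseudocount, filter, scaling, trend, groups fitted, block and libraries. Members, lists and tests were chosen with earlier results of these data known. All members are named, up to 4 called genes of each other list per comparison, and the 3 genes most like each member called against wild-type, by Pearson's r over the second set. Results for some genes of the other lists are not reported here.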

Additional observations from a re-analysis of the deposited data

Results flagged for a closer look

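In groups of 4 to 6 libraries, 6 of 60 combinations of member and genotype held a library whose gap to its neighbour exceeded Dixon's 95% critical value; chance gives about 1 in 20. Tcf7l2 in KIHet library 2 was at 24.2 FPKM, with the other 3 at 2.27 to 2.78 FPKM. Sox10 in wild-type library 1 of the second set was at 25.5 FPKM, with the other 5 at 31.2 to 34.5 FPKM. Olig2 in YACQ15 library 1 was at 12.1 FPKM, with the other 3 at 15.4 to 16.0 FPKM. Olig1 in KIHom library 3 was at 96.3 FPKM, with the other 3 at 109 to 110 FPKM. Zfp488 in KIHet library 3 was at 2.87 FPKM, with the other 3 at 3.37 to 3.45 FPKM. Zfp536 in KIHom library 4 was at 14.9 FPKM, with the other 3 at 11.6 to 12.1 FPKM.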

How the results depend on the processing

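The count of members called was 2 for dupKIHom in every alternative run except the replicate block, and 0 for the knockout, YACQ15 and KIHom against KIHet in every alternative run; without the libraries above 1000 FPKM of Ttr the knockout arm is 1 library, assumed to vary like the other groups. For the other comparisons it moved. Without 1 library at a time it ranged from 1 to 3 for dupKIHom against the knockout, 0 to 1 for KIHet, 0 to 2 for KIHom, 1 to 2 for YACQ84 and 0 to 1 for dupKIHet against KIHet. With only the 2 groups compared in the fit it was 0 for KIHom, YACQ84, YACQ84 against YACQ15 and dupKIHet against KIHet; the Zfp488 difference in YACQ84 then had a limma adjusted p of 0.101. Without the libraries above 1000 FPKM of Ttr it was 0 for dupKIHet, KIHom, YACQ84 against YACQ15 and dupKIHet against KIHet. For KIHom it was also 0 with no filter on low values and without the trend. Quantile normalization gave 2 for YACQ84 and 2 for YACQ84 against YACQ15, and centring on the library median gave 2 for YACQ84, Sox8 being added in each; in YACQ84 against YACQ15, centring called Sox8 in place of Zfp488. Of alternatives chosen after seeing the data, a covariate for the libraries numbered 1 gave 2 for dupKIHet, KIHom, YACQ84 and YACQ84 against YACQ15 and 3 for dupKIHet against KIHet, and leaving those libraries out gave 0 for KIHom. The cause of these moves was not tested.

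With the replicate number as a block, the fit gave 3 for dupKIHom (Olig1 added), 2 for dupKIHet, 3 for KIHom, 2 for YACQ84, 2 for YACQ84 against YACQ15 and 2 for dupKIHet against KIHet. The labels do not say what a number shares, and not every pair of libraries with the same number correlated above 0.1 after removal of the genotype means: 1 of 9 pairs did in the first set (median 0.00487) and 29 of 62 in the second (median 0.0869, against -0.030 for other pairs). The block was therefore not used in the report. In the second set the number did go with the libraries in part: 13 of 28 correlated best with their own number, and the 6 numbered 1 stood apart.

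Myrf in the knockout changed sign to 0.042, from -0.074, without the libraries above 1000 FPKM of Ttr, a value that rests on 1 knockout library. Tcf7l2 changed sign without KIHet library 2: over the leave-outs it ranged from -0.091 to 0.89 in KIHet and from -0.86 to 0.12 in KIHom against KIHet. With no depth for any library, low members such as Nkx2-2, Zfp488 and Tcf7l2 carry an unknown counting error.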
